A study of Mus musculus with 2 samples.

Results

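The clustered protocadherins are cell-surface adhesion proteins of the cadherin family, encoded on mouse chromosome 18 in 3 neighbouring gene clusters called α, β and γ. Protein-coding gene records of the GENCODE M21 basic set on that chromosome were taken where the gene name began with Pcdha, Pcdhb or Pcdhg. This gave 57 records of 21851 on the 21 chromosomes, with 14 in the α cluster, 22 in the β cluster and 21 in the γ cluster. The 57 records carry 56 names, because 2 records in the α cluster are both named Pcdha11. Pcdhgb8 is annotated as a polymorphic pseudogene and was not counted as a member. The choice was made by name and place.

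In the α and γ clusters each variable exon has its own promoter and is spliced to a set of constant exons that all genes of that cluster share, so the choice of promoter sets which extracellular domain a cell displays. β genes are single-exon genes with no shared constant exons. In neurons each cell uses a small, largely random set of the alternate promoters, and the resulting code lets the branches of a neuron tell themselves from those of other neurons. The C-type genes at the 3′ ends of the α and γ clusters are used more uniformly. Promoter choice is known to depend on CTCF and cohesin, on distant enhancers and on DNA methylation.

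Open chromatin was read by DNase-seq, in which the enzyme DNase I is let into nuclei and the DNA that it cuts most readily is sequenced. The tissue was the whole adrenal gland. The mice were males of B6CASTF1/J, a first-generation (F1) cross between C57BL/6J and CAST/EiJ, and were 8 to 10 months old, and reads of both parental genomes were placed on the C57BL/6J-based assembly. There were 2 replicates in 1 group, each a pool of 6 biosamples and 1 library, with no treated or control group. Both pools carry the same donor identifier in the labels, and the number of animals is unknown here, so the spread between pools may be partly technical. A whole gland holds cortex, medulla, vessels and nerve endings, and fewer cells with an open promoter cannot be told apart from less opening per cell.

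The deposited longer peak lists held 117371 peaks in replicate 1 and 146307 in replicate 2, with median signals of 0.699 and 0.727. The signal is the authors' value per peak, is never negative, and has a scale that was not stated. Of the markers of the labelled tissue, both pools had promoter peaks at 5 of 6 cortex genes, among them Star and Cyp11a1 of steroid synthesis, and at 7 of 7 chromaffin genes, among them Th and Dbh of catecholamine synthesis. Hsd3b1, a cortex gene of steroid synthesis, had none. Peaks in both pools were also found at 5 of 7 neuronal, 3 of 5 endothelial, 4 of 5 fibroblast and mural, and 1 of 4 macrophage genes. Over all protein-coding gene records the share was 61.9%, so these short lists describe the markers and do not set the cell types apart.

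Few clustered protocadherin promoters were open. A promoter was the sequence within 1 kb of an annotated transcription start site (TSS), and it counted as open where a peak overlapped it by at least 1 bp. In both pools 10 of 57 members were open, which is 17.5%, against 61.9% of all protein-coding gene records. In replicate 1 these 10 and no others were open, beside 62.9% of all records, and in replicate 2 there were 22, beside 65.2%. The other 12 of the 22 had a peak in replicate 2 alone, a state found in 3.36% of all records, and no member was open in replicate 1 alone, where the share of all records was 1.02%. A further 35 members had no promoter peak in either pool. In the authors' shorter lists only Pcdhac1 and Pcdhgc3 were open in both pools, 2 of 57, against 56.6% of all records. Among the peaks above the median signal of each longer list, Pcdhgc3 and Pcdhgc4 were open in both pools, again 2 of 57, against 54.9%.

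The open members also carried weak peaks. Over the 10 members open in both pools the median of the strongest promoter peak was 0.580 in replicate 1 and 0.652 in replicate 2, against 3.002 and 4.07 over the 13516 gene records open in both pools. Of these 10, 8 stood at or under percentile 9.98 of all such records in both pools, Pcdhgc4 at 20.1 in replicate 1 and 21.2 in replicate 2, and Pcdhgc3 at 78.4 and 75.6. Pcdhgc3 was thus the 1 member above the median of open genes, and it was so in both pools.

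**Figure D1:**
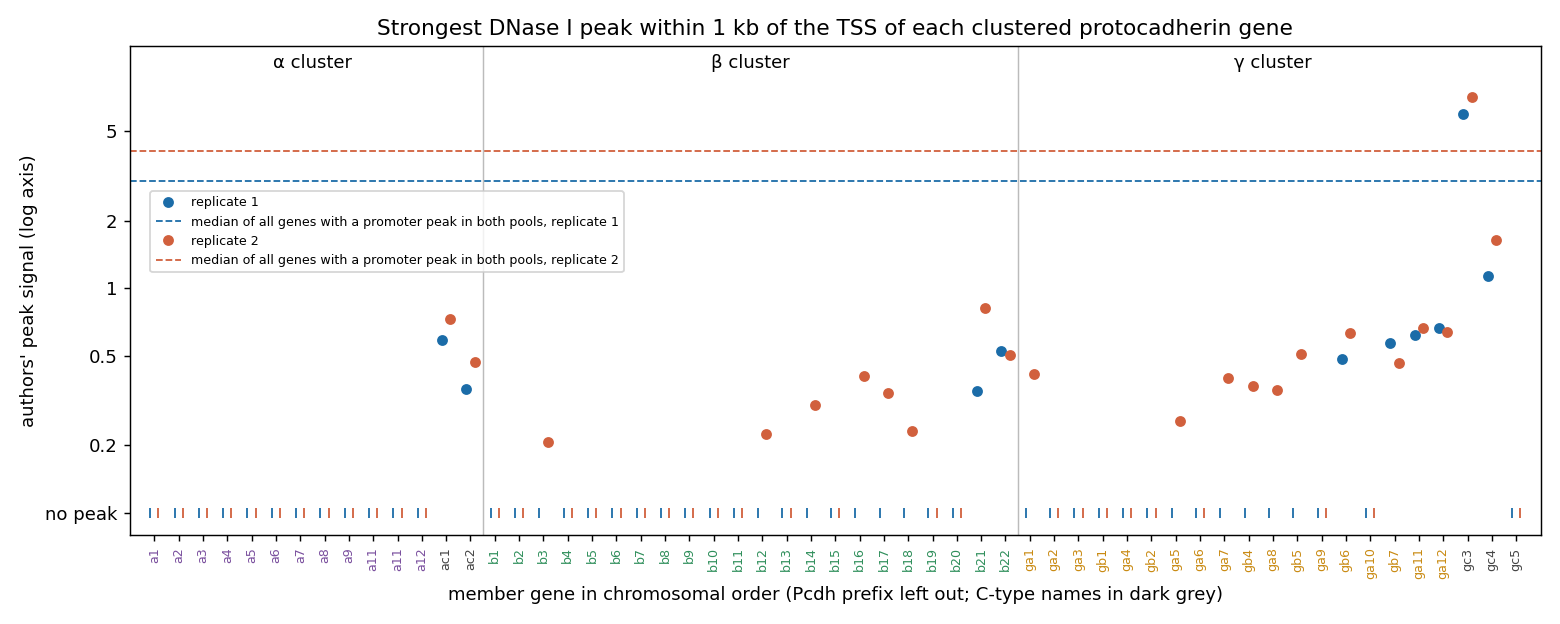
The plot gives, for each of the 57 members in chromosomal order along the horizontal axis, the authors' signal of the strongest promoter peak on a log axis, with a point for each pool, ticks at the bottom for members with no peak and dashed lines at the medians of all gene records open in both pools. The α members other than the C-type genes have no point, points become denser toward the 3′ ends of β and γ, and Pcdhgc3 alone lies above the dashed lines, at 5.97 and 7.12.

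Of the 4 types of member, the 5 C-type genes held the largest share of open promoters, with 4 of 5 open in both pools. Pcdhgc3, whose human counterpart is reported as methylated in metastatic paraganglioma, a tumour of chromaffin-type cells, had a signal of 5.97 in replicate 1 and of 7.12 in replicate 2. Its main peak lay on chromosome 18 at 37806181 to 37806440 in replicate 1 and ended at 37806420 in replicate 2 (mm10, as are all positions), over the TSS at 37806410. This was the second strongest peak of the whole locus in both pools. A weaker peak lay inside the same promoter, over the first exon, in both pools, in a region at 37806941 to 37807280 with a signal of 0.832 in replicate 1 and of 1.14 in replicate 2.

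Pcdhgc4, which in mice is needed for the survival of neurons, had a signal of 1.14 in replicate 1 and of 1.64 in replicate 2. The midpoint of its peak lay at -387 bp from the TSS of the longest coding transcript in replicate 1 and at -385 bp in replicate 2, where minus means before the TSS. Pcdhgc5, the last promoter of the γ cluster, had no peak in either pool. The 3 γ C-type genes, which are neighbours and share their constant exons, thus differed widely in both pools.

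Pcdhac1, the first C-type gene of the α cluster, had a signal of 0.587 in replicate 1 and of 0.727 in replicate 2, from a peak centred at -42 and -32 bp from its TSS. Pcdhac2, which guides the spacing of serotonergic axons in mice, had 0.357 and 0.472. Its strongest peak was centred 361 bp after the TSS in replicate 1 and 278 bp after it in replicate 2, where 2 weaker peaks joined it. Both α C-type genes were thus open in both pools, each at a signal below the median of open genes.

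None of the 12 α genes other than the C-type pair had a promoter peak in either pool. These are the alternate α promoters, of which a neuron is known to use a few. The array of their variable exons, 92.4 kb from 36930184 to 37022623, held no peak and no footprint in either pool. It lay inside the longest stretch without a peak of either pool around the clusters, from 36803190 to 37089860, which is 287 kb long and ends at the peak of Pcdhac1. The table of cleavage false discovery rates (FDR), which lists bases with an FDR under 0.05, listed 10 bases at the promoter of the 3′ record named Pcdha11 in replicate 2, with an FDR of 0.0437. It listed none at the other 11 α promoters in replicate 2 and none at any of the 12 in replicate 1.

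In the β cluster 2 of 22 genes were open in both pools and 8 in replicate 2. The 2 were the last genes of the cluster, Pcdhb21 and Pcdhb22. Pcdhb21 had a signal of 0.349 in replicate 1 and of 0.815 in replicate 2, the widest gap between the pools among the 10 members open in both, at 2.33-fold. Pcdhb22 had 0.528 in replicate 1 and 0.504 in replicate 2, but from different peaks. The stronger lay at -770 bp from the TSS of the longest coding transcript in replicate 1 and at 423 bp in replicate 2. Both positions held a peak in both pools. Pcdhb22 has 2 annotated TSSs, and the other lies 3′ of the one used for these distances. The peak at -770 bp lies inside the Pcdhb21 gene.

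The 6 β genes open in replicate 2 alone were Pcdhb3 at 0.208, Pcdhb12 at 0.224, Pcdhb14 at 0.304, Pcdhb16 at 0.408, Pcdhb17 at 0.344 and Pcdhb18 at 0.232. Replicate 1 had no peak at any of them. Of the 8 β genes open in replicate 2, 7 lay among the last 11 of the cluster and 1, Pcdhb3, among the first 11. This split of the cluster was chosen after the values were seen. The 14 β genes without a peak in either pool included Pcdhb1, the first of the cluster, and 99.4 kb from 37336135 to 37435499 with the TSSs of 5 members held no peak of either pool.

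Among the 18 genes of the γA and γB type, 4 were open in both pools and 10 in replicate 2. The 4 lay near the 3′ end of the array. Pcdhgb6 had a signal of 0.483 in replicate 1 and of 0.632 in replicate 2. Pcdhgb7 had 0.572 and 0.464. Pcdhga11 had 0.617 and 0.663. These 3 differed by at most 1.31-fold between the pools, and Pcdhgb7 was lower in replicate 2. Pcdhga12, the last of the array, had 0.669 in replicate 1 and 0.640 in replicate 2, from a peak centred 316 and 342 bp after its TSS. The pseudogene Pcdhgb8, which lies between Pcdhga11 and Pcdhga12, had 0.609 and 0.496. Pcdhga10, between Pcdhgb6 and Pcdhgb7, had no peak in either pool.

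The 6 γ genes open in replicate 2 alone were Pcdhga1 at 0.416, Pcdhga5 at 0.256, Pcdhga7 at 0.400, Pcdhgb4 at 0.368, Pcdhga8 at 0.352 and Pcdhgb5 at 0.512. Again replicate 1 had no peak at any of them. The last 9 of the γA and γB genes held all 4 that were open in both pools and 7 of the 10 open in replicate 2, and the first 9 held 0 and 3. This split too was chosen after the values were seen. Over the β and γ genes open in replicate 2 alone the signal ran from 0.208 to 0.512 with a median of 0.348.

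The FDR table, which can show cleavage where no peak was called, also listed few member promoters. At least 1 base with an FDR under 0.05 was listed at 10 members in replicate 1 and at 26 in replicate 2. Over the 21851 gene records the counts were 13989 and 14454. In both pools such bases were listed at 10 members, against 62.8% of all gene records. At an FDR of 0.001 or lower, bases were listed in both pools at 3 members, Pcdhac1, Pcdhga12 and Pcdhgc3, against 57.4% of all gene records. At the limit of 0.05 the median member had 0 listed bases in each pool, and the median gene record had 489 in replicate 1 and 670 in replicate 2. At that same limit Pcdhgc3 had 1285 bases and a lowest FDR of 1.71e-32 in replicate 1, and 961 bases and 2.97e-18 in replicate 2. Pcdhac1 had 525 bases under 0.05 in replicate 1 and 695 in replicate 2, with lowest FDRs of 2.69e-08 and 2.98e-12. At Pcdhb22 the lowest FDR was 9.12e-05 in replicate 1. Among the 4 open γA and γB genes the lowest FDR in replicate 1 ran from 0.000629 at Pcdhga12 to 0.0186 at Pcdhgb6, and Pcdhgc5 had no listed base in either pool.

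No base was listed in replicate 1 at any of the 12 members open in replicate 2 alone. In replicate 2 the same table listed bases at 4 members without a peak there, namely 41 at Pcdhb7, 36 at Pcdhgb1, 29 at Pcdhb15 and 10 at Pcdha11. The lowest of these FDRs was 0.0160, at Pcdhb15. Over the 18 γA and γB genes the share of bases listed was highest just before the TSS, at 16.1% from 100 to 50 bp before it in replicate 1 and at 44.4% within 50 bp before it in replicate 2. Over the 22 β genes replicate 2 reached 29.0% within 50 bp before the TSS. In replicate 1 the β genes had 0% in that bin and at most 1% within 100 bp after the TSS, and their highest bins, at 4.55%, began at -900 to -750 bp and at 400 bp, with 1 gene behind each. The strongest promoter peak had its midpoint within 150 bp of the TSS at 6 of 10 open members in replicate 1 and at 18 of 22 in replicate 2.

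**Figure D2:**
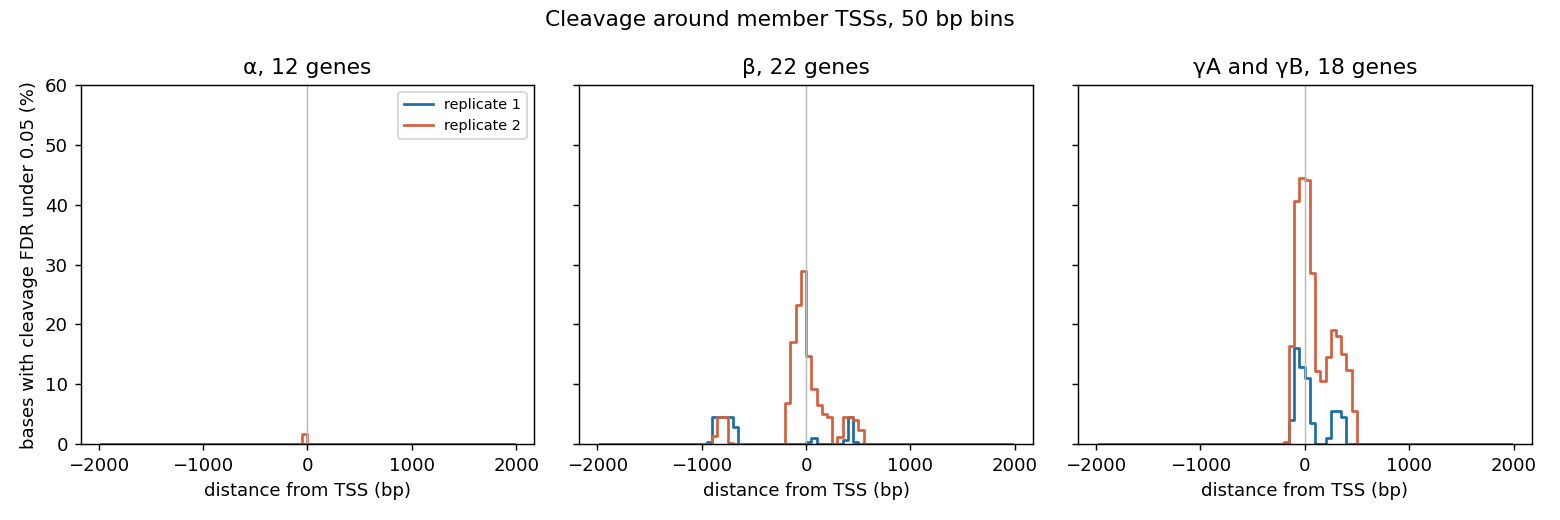
The 3 panels plot the percentage of bases with a cleavage FDR under 0.05 in 50 bp bins against the distance from the TSS, for the 12 alternate α genes, the 22 β genes and the 18 γA and γB genes, with a line for each pool. The α panel is flat apart from 10 bases in replicate 2, and in replicate 2 the β and γ panels have their highest bins next to the TSS, at 29.0% and 44.4%, whereas in replicate 1 the β panel reaches 4.55%, away from the TSS.

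Footprints are short stretches that the authors called as protected from cleavage inside open DNA. They were found within the promoters of 7 members in replicate 1, 17 in replicate 2 and 7 in both pools, against 59.6% of all gene records in both. For each pool alone the share of all gene records was not computed. The member promoters held 18 footprints in replicate 1 and 42 in replicate 2. Pcdhgc3 held 9 and 12 of them. Pcdhac1 held 0 and 4, as did Pcdhgb6, so that an open promoter in replicate 1 did not always carry a footprint. Over the clusters plus 50 kb there were 76 footprints in replicate 1 and 126 in replicate 2, of which 43 and 46 overlapped a footprint of the other pool. This overlap was not computed over all footprints, so it cannot be read as particular to the locus.

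Most of the strongest peaks lay outside the member promoters. The constant exons encode the shared intracellular part of the α and γ proteins. Constant exon 1 of the γ cluster lay under a peak with a signal of 1.07 in replicate 1 and of 1.41 in replicate 2, and its constant exon 3 lay under a peak of 1.14 in replicate 2 alone. The 3 α constant exons and constant exon 2 of the γ cluster had no peak in either pool. The introns beside the γ constant exons held a region at 37835341 to 37835700 with 4.33 and 5.16, and another at 37836681 to 37836920 with 2.09 and 2.28.

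In the α cluster a region between constant exons 2 and 3, at 37178401 to 37178720, had a signal of 0.877 in replicate 1 and of 1.49 in replicate 2. Another intronic region, at 37149321 to 37149560, lay 3′ of Pcdhac2 and had 0.713 and 0.895. The strongest region between the α and β clusters, at 37218241 to 37218460, lay 30.7 kb after the end of the α cluster and had 2.72 in replicate 1 and 3.33 in replicate 2. It was stronger than every promoter peak of the α cluster in both pools. Mouse α enhancers are known between the constant exons and downstream of the cluster, where HS5-1 lies, but whether these regions are those enhancers was not tested.

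Upstream of the γ cluster, a region at 37655541 to 37655920 lay 6.06 kb before its first gene and had a signal of 0.713 in replicate 1 and of 0.903 in replicate 2. Downstream of it, introns of Diaph1, a gene of actin assembly, held the strongest region of the locus at 37852161 to 37852400, 10.4 kb after the γ cluster, with 7.28 and 9.15. Diaph1 introns also held regions at 37877281 to 37877580 with 3.53 and 3.80, at 37880201 to 37880480 with 3.77 and 5.55, and at 37883561 to 37883780 with 4.18 and 5.02. Sites downstream of the γ cluster are known in mice to act on β genes, and here too the identity of the regions was not tested. The 10 strongest peaks of the locus sat at the same 10 places in both pools, and among them were only 2 member promoters, those of Pcdhgc3 and Pcdhgc4.

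**Figure D3:**
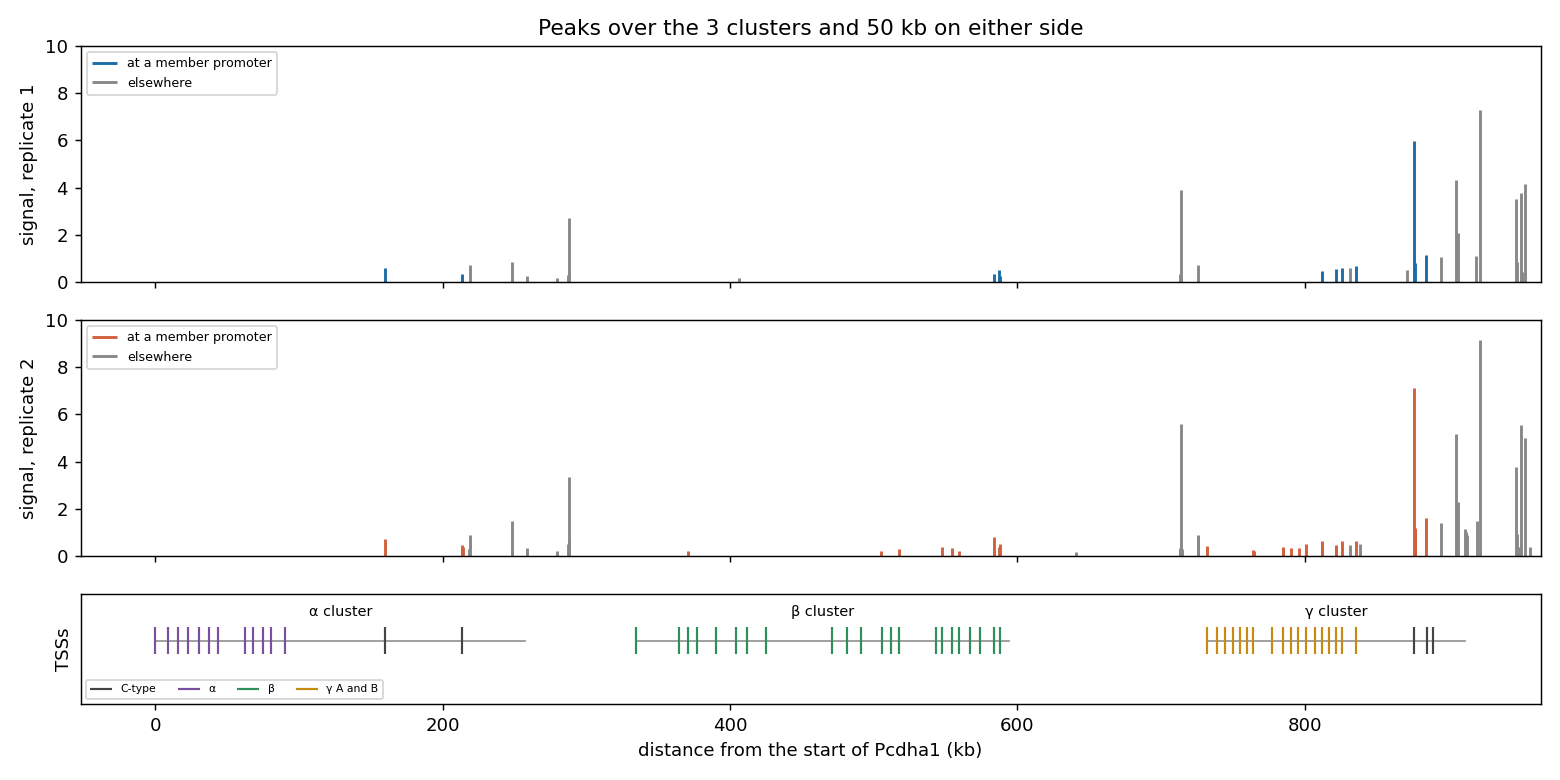
Vertical lines give the authors' signal of each peak, by pool, against the distance in kb from the start of Pcdha1, coloured where the peak lies at a member promoter and grey elsewhere, with the TSSs of the members by type in the bottom panel. Peaks are absent over the alternate α genes, sparse over β and denser over γ and after it. The tallest line is a grey one after γ, of 7.28 in replicate 1 and 9.15 in replicate 2.

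Peak density was lowest at the alternate α genes and highest from the γ cluster onward. The 50 kb before the α cluster and the alternate α array held 0 peaks in both pools. The β cluster held 4 peaks in replicate 1 and 9 in replicate 2 over 260 kb, which is 1.54 and 3.47 per 100 kb. The γ cluster held 12 and 23 over 180 kb, which is 6.66 and 12.8 per 100 kb. The 50 kb after the γ cluster held 7 and 10, or 14 and 20 per 100 kb. The whole locus, 1012 kb with its flanks, held 34 peaks in replicate 1 against 62 in replicate 2 (mean 48.0 ± 19.8, SD, n = 2), or 3.36 and 6.13 per 100 kb, against 4.14 and 5.32 over the rest of chromosome 18 and 4.63 and 5.77 over the autosomes. The locus as a whole was therefore below the rest of its chromosome in replicate 1 and above it in replicate 2, and its peaks were unevenly placed in both.

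In replicate 1, 31 of 34 peaks were met by a peak of the other pool, which is 91.2%, and in replicate 2 this held for 32 of 62, which is 51.6%. Together they formed 31 regions shared by both pools. Over the autosomes there were 94071 shared regions, beside 114045 peaks in replicate 1 and 142023 in replicate 2. Member promoters held 12 of the 34 peaks and 31 of the 62. Of the 31 peaks at member promoters in replicate 2, 12 overlapped a peak of replicate 1. The share of peaks met by the other pool was not computed over all peaks. These shares thus cannot be read as particular to the locus. Other protein-coding genes with a TSS in this interval were Taf7, a general transcription factor subunit, with 3.92 in replicate 1 and 5.60 in replicate 2, and Slc25a2, Gm42416, Gm37013 and Gm37388 with no promoter peak. The records Gm42416, Gm37013 and Gm37388 start inside the alternate α array and end in the γ cluster. Their lack of a peak is thus not separate from that of the array. Antisense transcripts are annotated over 14 of the 57 member promoters, such as BC037039 at Pcdhgc3 and Gm26672 at Pcdhga12. This count was not made over all gene records, so it cannot be read as particular to the members. DNase I peaks carry no strand, so a peak at such a promoter cannot be assigned to either transcript.

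Promoter sequence varied among the subgroups. A promoter was called CpG-rich where the observed over expected CpG ratio within 500 bp of the TSS was at least 0.6 and G+C was at least 50%. Only 3 of 57 members met this, Pcdhac2, Pcdhgc3 and Pcdhgc4, which is 5.26%, against 45.7% of all gene records. All 3 were open in both pools, as were 92.8% of CpG-rich promoters over all genes. Of the other 54 members 7 were open in both pools, which is 13.0%, against 35.8% of promoters over all genes that were not CpG-rich. The members thus lay under the genome's share among promoters not called CpG-rich too. That class also holds promoters that failed on G+C alone, such as Pcdhga11 with a CpG ratio of 0.86.

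The CpG ratio of the members was close to that of the genome and their G+C was lower. The median CpG ratio of the members was 0.56, against 0.57 over all gene records, and their median G+C was 44.9% against 55.2%. The alternate α promoters had a median CpG ratio of 0.69 and a G+C of 45.5%, and none was open. The γA and γB promoters had 0.59 and 46.5%, and the β promoters had 0.38 and 41.5%. The C-type promoters had 0.67 and 55.8%. From β to γA and γB to C-type the median ratio and the share open in both pools were both higher at each step, at 9.09%, 22.2% and 80% open, and the α promoters, with the highest ratio and 0 open, stood outside this order. Within the groups this order did not always hold. The β genes open in both pools, Pcdhb21 and Pcdhb22, had ratios of 0.24 and 0.21, under the β median. Of the γA and γB genes open in both pools, Pcdhga12 lay under its group's median, at 0.32. Pcdhgb6, Pcdhgb7 and Pcdhga11 lay above it, at 0.66, 0.64 and 0.86. The part of CpG content in opening was not tested. Among all members the median ratio was 0.65 for those open in both pools, 0.51 for those open in replicate 2 alone and 0.52 for those open in neither.

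Similar sequence among paralogs can remove reads that match more than 1 place, and the filter that was used on the alignments was not stated. The share of 32-base words within 1 kb of the TSS that occur once on the 21 chromosomes of mm10 had a median of 88.6% at the alternate α promoters, 99.6% at β, 97.6% at γA and γB and 100% at C-type promoters, against 98.6% over all gene records. The lowest member was Pcdha7, at 73.7%. By state, the median was 100% for members open in both pools, 98.6% for those open in replicate 2 alone and 90.7% for those open in neither. Over all members uniqueness thus moved with opening, but this order did not hold within the γA and γB genes. There it ran from 88.5% at Pcdhgb7 to 98.2% at Pcdhga11 for genes open in both pools. For those open in neither it ran from 90.7% at Pcdhga10 to 100% at Pcdhgb1. In β, Pcdhb21 and Pcdhb22 had 100%, and the genes open in neither ran from 78.6% at Pcdhb9 to 100% at Pcdhb1. The part of uniqueness in the result was not tested. Under 90% of words were unique at 9 of 12 alternate α promoters, 7 of 22 β, 4 of 18 γA and γB and 0 of 5 C-type promoters.

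**Figure D4:**
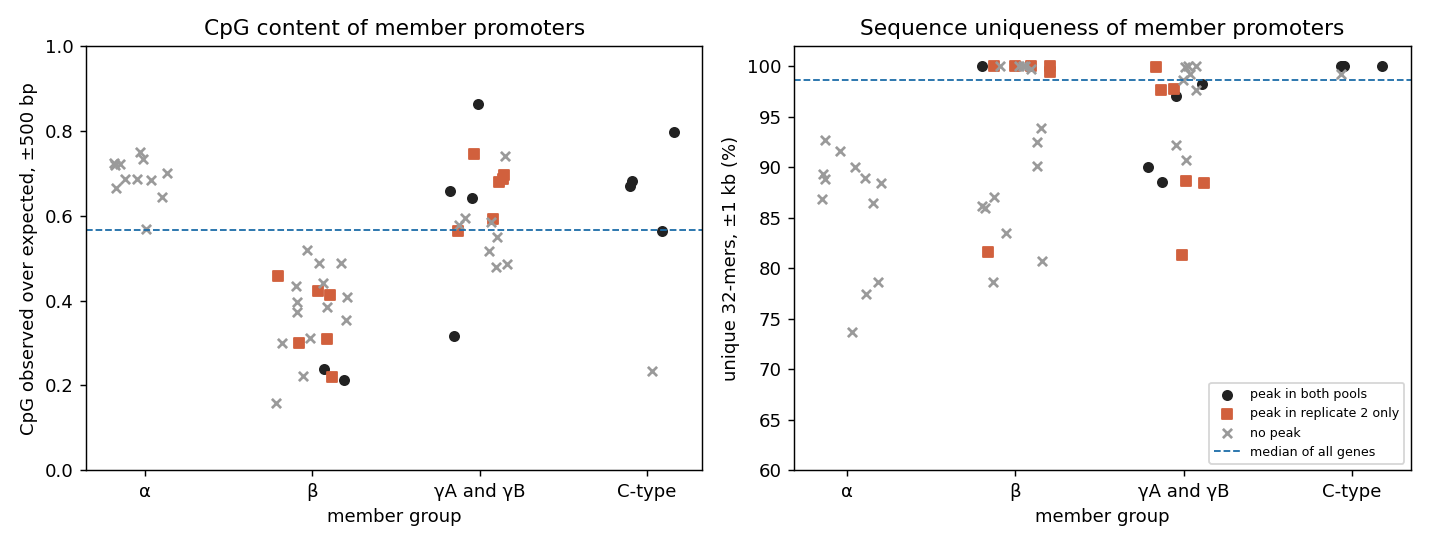
Each mark is a member promoter, grouped by type, with the observed over expected CpG ratio on the left and the percentage of 32-base words that occur once in the genome on the right, shaped by whether the promoter had a peak in both pools, in replicate 2 only or in neither, and with the median of all gene records as a dashed line. The 12 α promoters, all without a peak, have a median CpG ratio of 0.69 above the line and a median uniqueness of 88.6% below it.

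Exact matches to the CTCF consensus, a motif of 12 letters searched on both strands, were found in the promoter windows of 6 members, which is 10.5%, against 1.66% of all gene records. All 6 were alternate α genes, Pcdha1, Pcdha4, Pcdha6, Pcdha7, Pcdha8 and Pcdha12. The matches lay on the strand of the gene, from 464 to 586 bp after the TSS, inside the variable exon. None of the 6 promoters was open in either pool. With 1 mismatch allowed the members reached 13, or 22.8%, close to the 20.5% of all gene records.

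Variable exons of the β cluster held exact matches in 13 of 22 genes, all on the opposite strand and 2276 to 2815 bp after the TSS, so outside the promoter windows. Of these 13 genes 7 were open in replicate 2 and 2 in replicate 1, and of the 9 others 1 was open in replicate 2 and 0 in replicate 1. Of the 13, 4 lay among the first 11 genes of the cluster, and of the 9 others 7 did. Median uniqueness was 99.7% for the 13 and 86.2% for the others, and the parts of motif, position and uniqueness cannot be told apart. None of the 19 matches in promoter windows and variable exons lay in a peak. For the 6 in promoter windows this follows from the lack of a peak at those promoters. Of all 22 matches in the locus 1 lay in a peak in replicate 1 and 3 in replicate 2. How often such matches lie in peaks was not computed over the genome, so these counts cannot be read as particular to the locus. A match within 75 bp of the midpoint was found in 1 of the 31 shared regions, the Diaph1 region at 37883561. This is 3.23%, against 4.56% of all shared regions of the genome. The shared region at 37217201 to 37217600, between the α and β clusters, held a match farther from its midpoint, inside the peak of replicate 2 alone. A match in sequence is not a bound site, and binding of CTCF was not measured.

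Other motifs were searched on both strands of the promoter windows. The CGCT box, a short element known from clustered protocadherin promoters and searched as the letters CGCT, was present in all 57, but also in 92.8% of all gene records. The GC box GGGCGG was found at 43.9% of members against 66.7% of all gene records, and at 11 of the 12 alternate α promoters. The left part of the REST element, TTCAGCACC, was found at 0 members and 2.96% of all gene records. The right part of that element, 10 letters long, was found at 9, which are 8 β genes and Pcdhga10, or 15.8% against 3.46%. Of the 8 β genes with this right part 1 was open in replicate 2 and 0 in replicate 1, and of the 14 without it 7 and 2 were open. Position and uniqueness moved with this split too. Of the 8 genes 7 lay among the first 11 of the cluster, against 4 of the 14, and their uniqueness ran from 80.7% to 92.5%, against a median of 100% for the 14. The parts of these features cannot be told apart.

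The promoters of genes whose products are known to act on these clusters were also read. A list of 16 genes of chromosome folding and silencing had a promoter peak in both pools at 16 of 16, beside 61.9% of all gene records. Ctcf, which binds protocadherin promoters and enhancers, had 2.27 in replicate 1 and 3.41 in replicate 2. Rad21, a cohesin subunit, had 6.54 and 7.51, and Smchd1, which represses clustered protocadherin genes in mice, had 4.09 and 5.49. Dnmt3b, which methylates alternate promoters in mouse embryos, was the lowest of the list at 0.565 and 0.743. Of 12 protocadherins outside the clusters 8 were open in both pools, a share near that of all gene records, with Pcdh17 at 3.09 and 3.86 and Pcdh10 at 2.56 and 3.52 the strongest. Pcdh7, Pcdh11x and Pcdh20 were closed in both pools, and Pcdh15 was open in replicate 2 alone, at 0.488.

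The pools differed in more than the number of peaks. Among the 10 members open in both pools the signal was higher in replicate 2 at 7 and lower at 3, with a median log2 ratio of replicate 2 over replicate 1 of 0.28 and a range of -0.30 to 1.22. Over all gene records open in both pools the median was 0.38. With the 117371 strongest peaks of replicate 2, as many as in replicate 1, 15 members were open in replicate 2, beside 62.7% of all gene records. The same 10 were then open in both pools, beside 60.8% of all gene records, and the 5 others were Pcdhb16, Pcdhga1, Pcdhga7, Pcdhgb4 and Pcdhgb5. The other 7 members had promoter peaks under the signal of 0.360 at which that list ended.

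Markers of several cell types were higher in replicate 2, but so were gene records in general. Over all gene records open in both pools the median log2 ratio was 0.38, with an SD of 0.24 across records. Of the lists given here the cortex and endothelial ones and Cd68 lay under that median, and the neuronal list lay furthest above it. Summed over the 5 neuronal genes open in both pools the signal was 3.66 in replicate 1 and 5.98 in replicate 2, with a median log2 ratio of 0.79, against 0.38 over all gene records. Rbfox3, a marker of mature neurons, had no peak in either pool, and Stmn2 had 0.384 in replicate 2 alone. The 7 chromaffin genes had a median log2 ratio of 0.46, with sums of 14.5 in replicate 1 and 20.7 in replicate 2, and the 5 open cortex genes had 0.26, with sums of 18.5 and 22.1. The 4 open fibroblast and mural genes had 0.40, with sums of 3.51 and 5.39, and the 3 open endothelial genes had 0.28, with sums of 2.46 and 2.51. Cd68, the open macrophage gene, had 1.14 and 1.26. The part of cell make-up in the members found in replicate 2 alone was not tested.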

How the data were processed

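DNase-seq of 2 pools of mouse adrenal gland was used. Per the labels the assembly was mm10, and per the deposited readme texts peaks, footprints and the FDR table came from the filtered alignments of each library. For the aligner, callers, versions and library depth, nothing is given in the sources used here, so no counting interval is given. The signal of each peak in the longer deposited list is the authors' value. The deposited FDR table gives p-values adjusted by the authors and lists only intervals under 0.05. Each deposited footprint carries 1 constant score-like value of 0.01, so footprints were counted by position.

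Peaks were joined to GENCODE M21 promoters with Python 3.11.15, pandas 2.3.3 and numpy 2.4.6, and the join was tested on simulated data. Motifs, CpG content and word uniqueness were read from RefSeq's GRCm38 sequence with numba 0.67.0. Every member with a promoter peak, all C-type genes, other genes in the interval and the 10 strongest peaks per pool were named. The members, gene lists and motifs were chosen with earlier results of these data known. With 1 group, no test was made. Alternatives covered the peak list, peak number, promoter width, TSS, overlap, footprints, flank, motif mismatches, CpG limit and leaving out a pool. The 2 records named Pcdha11 were kept apart. Of the marker lists, 1 is not reported here.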

Additional observations from a re-analysis of the deposited data

How the results depend on the processing

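Of 31 alternatives, 18 left their value within 1.5 times the reported count or within the spread between pools, and 13 moved it. Leaving out either pool for the median signal is counted among the 18. With 2 pools that value always lies within the spread, so it says nothing about stability. The 10 members open in both pools were the same 10 with promoters of 500 bp or 2 kb, the single TSS of the longest coding sequence, peak midpoints or equal numbers of peaks. With the shorter peak lists 2 members were open (Pcdhac1 and Pcdhgc3), beside 56.6% of all gene records, and with the stronger part of each list, cut at the median signal, also 2 (Pcdhgc3 and Pcdhgc4), beside 54.9%. The mean of 48.0 peaks in the locus became 22.5 and 20.5 under these settings, and the 31 shared regions became 15 and 17. Leaving out each pool gave 10 to 22 open members, 34 to 62 peaks, 7 to 17 members with footprints, 10 to 26 members with listed cleavage and a median signal of 0.580 to 0.652. In each case the upper value came from leaving out replicate 1. The mean of the 2 median signals, 0.616 ± 0.0508 (SD, n = 2), became 0.753 when the peaks of a promoter were summed. Members with a CTCF match went up to 13 with 1 mismatch, and CpG-rich members down to 1 (Pcdhgc3) at a CpG ratio of 0.75. With an FDR limit of 0.001 cleavage was listed at 3 members in both pools, beside 57.4% of all gene records. That limit, and leaving out a pool for cleavage, were chosen after seeing the data. Why these counts moved was not tested. Shared regions could not be computed with 1 pool left out. No paired analysis was possible because there is 1 group of 2 pools.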
